A study of Mus musculus with 6 samples.

Results

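Translation initiation factor genes were followed in cultured mouse neural stem cells with and without Smchd1, an SMC-like chromatin protein that takes part in gene silencing. The genes were chosen by name, with earlier results of these data known. The rule took every gene ID of the deposited tables whose symbol begins with Eif1, Eif2, Eif3, Eif4, Eif5 or Eif6. It left out the pseudogene Eif1-ps3 and the Y-linked Eif2s3y. This gave 56 of 27179 gene IDs. All libraries came from neural stem cells derived from brains of male embryos of stage E14.5, with the strain given as C57BL/6 x FVB/N, and grown with EGF and bFGF. There were 3 wild type libraries and 3 libraries homozygous for the Smchd1 allele MommeD1, labelled Smchd1 null. No source used here says whether the replicates came from separate embryos, so p-values measure the spread between these libraries, which may be technical.

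Initiation is the step that brings a ribosome to the start codon of an mRNA. eIF2, bound to GTP and the initiator tRNA, forms a ternary complex that loads onto the small ribosomal subunit together with eIF1, eIF1A, eIF3 and eIF5. The eIF4F complex, made of the cap-binding protein eIF4E, the scaffold eIF4G and the helicase eIF4A, brings this assembly to the capped end of the mRNA, which is then scanned for an AUG. Phosphorylation of eIF2 by its kinases blocks its recharging by eIF2B and lowers initiation on most mRNAs. In neural stem cells, as in other dividing cells, most of these factors are abundant products of genes that all cells use.

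Total counts ran from 18608881 to 23253367 per library. Smchd1 RNA itself measured 254 ± 20.0 CPM (counts per M counts of scaled library size) without the mutation and 29.7 ± 1.68 CPM with it (mean ± SD, n = 3). Wild type replicate 3 stood apart in composition, because Entrez gene 100861531, which has no symbol in the gene table, made up 44.6% of it and 2.11% to 5.90% of the others. Its depth after scaling was 10.1 M counts, against 21.3 to 25.8 M. The sample names carry numbers as well. Wild type replicate 3 and all null libraries are numbered 11 to 14, and the other wild type libraries lie outside that range. No source used here gives their meaning. All 13 neural stem cell markers lay above a mean of 1 CPM and summed to 6508 to 6808 CPM per wild type library and 6492 to 6652 CPM per null library. None of the 5 microglia, 5 fibroblast or 4 matched red cell markers did so, and Itgam and Hbb-bs were at 0 counts. Of the 3 vessel markers, Cdh5 was at 0 counts and Pecam1 averaged 0.309 and 0.231 CPM in wild type and null. Kdr, the third, averaged 1.89 and 1.53 CPM. The sum of 5 oligodendrocyte lineage markers ran from 18.4 to 172 CPM in wild type and from 117 to 142 CPM in null, and nearly all of it was Pdgfra, at 17.1, 18.3 and 167 CPM in wild type replicates 1 to 3. The neuron markers summed to 1093 to 1128 CPM in wild type and 996 to 1029 CPM in null. Most of that was Map2, at 1084 and 981 CPM on average. Syp, at 12.8 and 11.7 CPM, and Rbfox3, at 1.05 and 0.571 CPM, were also lower on average in null. Tubb3, Dcx, Snap25 and Nefl were low in both groups and higher on average in null. In wild type replicate 3, however, Tubb3, Dcx and Snap25 lay above every null library, at 10.4, 5.56 and 3.08 CPM. The astrocyte markers summed to 37.1 to 106 and 76.2 to 81.0 CPM. Their part in the results below was not tested.

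Of the 56 genes, 53 had enough counts to be tested among 14207 genes. Eif4e1b, a relative of eIF4E known from oocytes, and Eif2c5, which fits the naming rule but carries an older Argonaute name, had 0 counts in all 6 libraries. A count of 0 over the 124 M scaled counts of all libraries allows a level of up to 0.0241 CPM, a limit that covers counting error only. Eif4e3, another relative of the cap-binding protein, was nearly silent, at 0.233, 0.128 and 0.595 CPM in wild type and 0.188, 0.234 and 0.446 CPM in null.

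Eif1 was the only initiation factor gene that passed the test between the genotypes, and it fell in null. It encodes eIF1, the small factor that holds the scanning ribosome open and guards against starting at the wrong codon. Its closest relative, Eif1b, encodes a very similar protein and did not pass. The sequences just upstream of both genes are shown to place them beside each other. They are 250 bases each, 5′ to 3′, from RefSeq on GRCm38.p6, both on the plus strand, with matches to searched motifs in capitals.
Eif1, chr11:100319699-100319948: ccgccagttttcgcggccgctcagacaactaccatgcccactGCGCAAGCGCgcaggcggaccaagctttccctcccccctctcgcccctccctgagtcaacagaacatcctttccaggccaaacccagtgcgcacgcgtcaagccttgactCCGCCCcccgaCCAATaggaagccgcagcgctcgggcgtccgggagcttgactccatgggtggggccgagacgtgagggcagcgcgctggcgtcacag
Eif1b, chr9:120492356-120492605: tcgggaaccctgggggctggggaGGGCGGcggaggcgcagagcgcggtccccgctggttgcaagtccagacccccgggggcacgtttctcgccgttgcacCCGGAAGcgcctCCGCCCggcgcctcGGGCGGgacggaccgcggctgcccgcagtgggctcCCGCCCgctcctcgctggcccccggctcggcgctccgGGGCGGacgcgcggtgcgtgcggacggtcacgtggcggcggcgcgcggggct
The Eif1 stretch holds 66.8% G and C and the Eif1b stretch 80.4%. In the Eif1 stretch the capitals mark, from left to right, an NRF1 motif (searched on either strand), a GC box (GGGCGG on either strand) and a CCAAT box (CCAAT on either strand). In the Eif1b stretch they mark 5 GC boxes and 1 ETS motif (CCGGAAG on either strand). Windows from 250 bases before to 50 after the start were on hand for 44 of the 56 genes, 57 windows in all since some genes have several starts. The GC box was present in 39 of these 57 windows, against 35.7% of all 32851 windows in the table, the ETS motif in 19, against 8.86%, and the NRF1 motif in 10, against 4.6%. CCAAT was present in 16, against 37.4%, the TATA box letters TATANAA in 2, against 11.3%, the cAMP response element TGACGTCA in 0, against 1.79%, and the C/EBP-ATF response element TGATGNAA in 1, against 3.97%. A match is a description of letters and not a bound site.

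Eif1 (Entrez 20918, chromosome 11, 100319949 to 100322099, mm10) stood at 79.8, 76.0 and 81.6 CPM in wild type replicates 1 to 3 and at 61.1, 54.6 and 53.4 CPM in null replicates 1 to 3. All 3 wild type libraries lay above all 3 null libraries, and wild type replicate 3 was the highest of the 6. These values rest on 2059, 1782 and 822 counts in wild type and 1301, 1166 and 1198 in null. The means were 79.1 ± 2.85 CPM and 56.4 ± 4.15 CPM (SD, n = 3), a log2 fold change (null minus wild type) of -0.49 ± 0.07 (SE), with an adjusted p of 0.0280 over all 14207 genes in edgeR's quasi-likelihood test. Genes that passed as lower made up 0.0704% of all tested genes. Less RNA per cell and fewer cells of a kind with much Eif1 cannot be told apart in bulk RNA. Leaving out wild type replicate 3 gave -0.47 (edgeR adjusted p = 3.1e-05). With the range of sample-name numbers as a term the value was -0.53. That fit in effect sets wild type replicate 3 alone against the null libraries, so only its effect size is given here. The log2 fold change ran from -0.55 to -0.45 when any library but wild type replicate 3 was left out. The call was then lost, with edgeR adjusted p-values from 0.0719 to 0.221. No annotated exon of another gene overlaps Eif1. In Eif1b, 12.7% of the exon bases lie opposite an antisense gene, whose reads the unstranded protocol does not separate.

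The initiation factor genes as a whole leaned slightly lower in null. Of the 53 tested genes, 1 passed as lower and 0 as higher at an adjusted p of 0.05 in edgeR, where 0.507% of all genes passed as higher, and DESeq2 and limma-voom without weights gave the same counts for these genes. At an unadjusted p under 0.05 7 genes were lower, which is 13.2% of the 53 against 9.05% of all genes, and 1 was higher, 1.89% against 9.54%. A log2 fold change below 0 was found for 43 of 53 (81.1%), against 49.7% of all genes, with a median of -0.09 against 0.00 for all genes, and the values ran from -0.49 to 0.31. Groups that did not overlap were seen for 10 genes lower in null, 18.9% of the 53 against 10.6% of all genes, and for 3 genes higher in null, 5.66% against 11.4%. The lower ones were Eif1, Eif2a, Eif2b2, Eif3b, Eif3c, Eif3d, Eif3h, Eif3k, Eif3l and Eif4b, and the higher ones were Eif2ak4, Eif4a2 and Eif5. Both measures thus counted more lower and fewer higher genes than the shares over all genes, without a test of that difference.

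**Figure D1:**
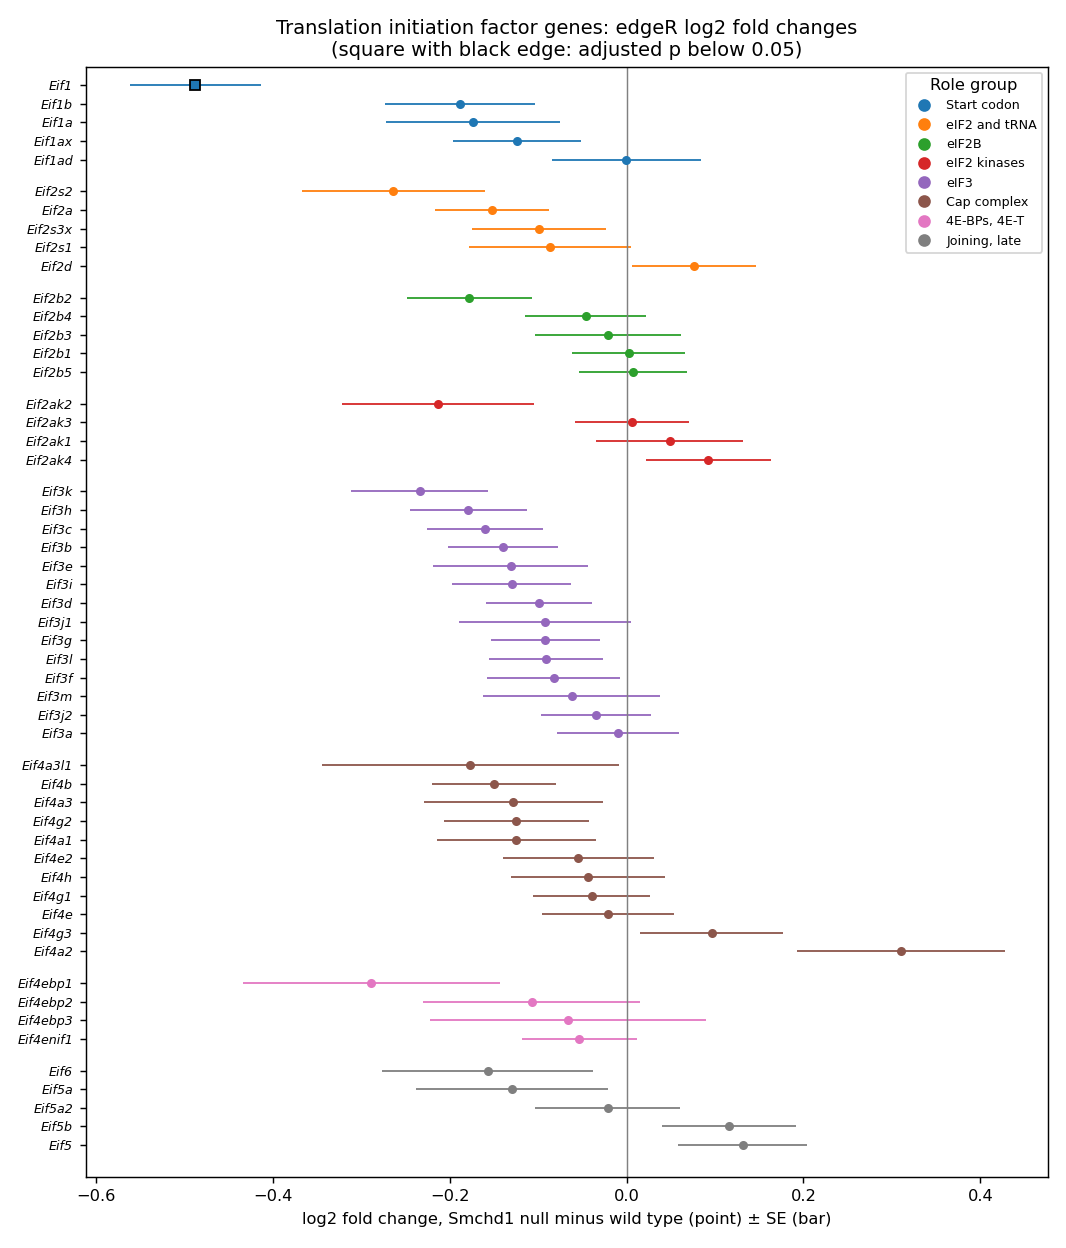
Log2 fold change of each of the 53 tested genes (x axis, Smchd1 null minus wild type, point) with its standard error (bar), sorted within role groups (colours). Eif1, at -0.49, is the only gene marked as passing the test, all 14 eIF3 genes lie below 0, and Eif4a2 has the highest value, 0.31.

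In the start codon group, all 5 genes had log2 fold changes below 0, although that of Eif1ad was only -0.000279. The median of -0.17 turned to 0.02 with the range of sample-name numbers as a term. Eif1b was at 65.9, 68.5 and 55.9 CPM in wild type and 54.9, 56.9 and 55.7 CPM in null. Wild type replicates 1 and 2 lay above the null libraries and replicate 3 lay among them. Its log2 fold change was -0.19 ± 0.09 (SE, edgeR adjusted p = 0.278). Eif1a and Eif1ax encode versions of eIF1A, which helps place the initiator tRNA. Eif1a stood at 139, 148 and 111 CPM in wild type and at 117, 118 and 118 CPM in null, and Eif1ax at 160, 156 and 137 CPM and 141, 137 and 139 CPM. Both repeat the layout of Eif1b, with wild type replicate 3 among or below the null libraries. Eif1ad, an eIF1A-like gene whose exons share 15.3% of their bases with Banf1 on the other strand, had nearly equal means, 52.9 ± 5.00 and 53.0 ± 1.93 CPM in wild type and null (SD, n = 3).

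In the ternary complex group, 4 of 5 genes had log2 fold changes below 0 and the median was -0.10. Eif2s2, the beta subunit of eIF2, stood at 125, 135 and 101 CPM in wild type and at 102, 105 and 95.1 CPM in null, a log2 fold change of -0.26 ± 0.10 (SE, edgeR adjusted p = 0.238). The groups overlapped through wild type replicate 3. The alpha subunit gene Eif2s1, which carries the site that the stress kinases phosphorylate, was at 183 ± 20.0 and 173 ± 10.7 CPM, and the gamma subunit gene Eif2s3x at 218 ± 16.4 and 204 ± 9.28 CPM (SD, n = 3). Eif2a encodes a separate tRNA-binding factor that is not a subunit of eIF2. Its wild type libraries, at 81.9, 80.6 and 74.8 CPM, all lay above its null libraries, at 73.0, 71.7 and 69.1 CPM, and its log2 fold change was -0.15 ± 0.06 (edgeR adjusted p = 0.260). Eif2d, another factor that can deliver tRNA without GTP, was at 27.6 ± 0.82 and 29.1 ± 0.93 CPM, and its groups overlapped.

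The 5 eIF2B subunits, which recharge eIF2 with GTP, showed little difference, with a median log2 fold change of -0.02. Eif2b2, the beta subunit, was the exception in layout, at 34.0, 33.8 and 34.6 CPM in wild type and 28.3, 31.1 and 31.1 CPM in null. Its groups did not overlap, and the log2 fold change of -0.18 ± 0.07 did not pass (edgeR adjusted p = 0.240). Eif2b1, Eif2b3, Eif2b4 and Eif2b5 had values between -0.05 and 0.01. Eif2b5, the catalytic subunit and the highest of the complex per length, averaged 97.6 ± 3.81 and 98.2 ± 2.92 CPM in the 2 genotypes (SD, n = 3).

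The 4 eIF2 kinase genes sense heme shortage (Eif2ak1), double-stranded RNA (Eif2ak2), unfolded proteins (Eif2ak3) and amino acid shortage (Eif2ak4). Of these, 1 had a log2 fold change below 0, and none passed. Eif2ak2, also known as PKR, was at 27.8, 27.7 and 22.3 CPM in wild type and 23.7, 23.7 and 20.3 CPM in null (-0.21 ± 0.11, edgeR adjusted p = 0.317). Eif2ak4, also known as GCN2, was at 34.3, 38.5 and 38.0 CPM in wild type and 39.5, 38.8 and 39.7 CPM in null, so that the null libraries lay just above the wild type ones. Its log2 fold change was 0.09 ± 0.07. Eif2ak3 was at 73.1 ± 0.55 and 73.4 ± 3.79 CPM, and Eif2ak1 at 27.2 ± 2.13 and 28.0 ± 1.23 CPM (SD, n = 3).

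All 14 genes of eIF3, the large scaffold that binds the small ribosomal subunit, had log2 fold changes below 0, from -0.23 to -0.01 with a median of -0.10, and none passed. Eif3k was at 87.5, 81.6 and 75.1 CPM in wild type and 65.1, 71.5 and 71.3 CPM in null, with a log2 fold change of -0.23 ± 0.08 (SE, edgeR adjusted p = 0.203). Eif3h was at 172, 164 and 153 CPM and 140, 147 and 146 CPM (-0.18 ± 0.07, edgeR adjusted p = 0.225). Eif3c, of the core, was at 421, 393 and 381 CPM and 362, 349 and 359 CPM (-0.16 ± 0.07, edgeR adjusted p = 0.251). In these 3 genes each wild type library lay above each null library, and wild type replicate 3 was the lowest of its group. The same separation was seen for Eif3b, Eif3d and Eif3l, although 43.3% of the exon bases of Eif3d lie opposite an antisense gene, whose reads this unstranded protocol does not separate. Eif3a, the largest subunit, averaged 629 ± 8.17 and 625 ± 37.0 CPM in wild type and null (SD, n = 3). Eif3j1 and Eif3j2 are near-identical copies, and their reads may have been split between them.

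The cap complex held values on both sides of 0. Of its 13 genes, 11 were tested and 9 had a log2 fold change below 0, with a median of -0.05. Eif4a2, one of a pair of genes for the eIF4A helicase, was at 133, 179 and 181 CPM in wild type and 205, 212 and 193 CPM in null. All null libraries lay above the wild type libraries, and wild type replicate 1 lay well below the other two. The log2 fold change of 0.31 ± 0.12 was the highest of the 53 genes and did not pass (edgeR adjusted p = 0.232), nor did the value of 0.38 without wild type replicate 3 (adjusted p = 0.0911). Its partner Eif4a1 was at 494, 502 and 407 CPM in wild type and 427, 416 and 444 CPM in null (-0.12 ± 0.09). Eif4b, a cofactor of the helicase, was at 530, 504 and 467 CPM and 460, 445 and 449 CPM, with groups that did not overlap (-0.15 ± 0.07, edgeR adjusted p = 0.287).

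The eIF4G scaffold is encoded by 3 genes. Eif4g1 was at 790 ± 25.9 and 769 ± 23.1 CPM, Eif4g2, whose product lacks the eIF4E binding site, at 1026 ± 80.7 and 941 ± 44.1 CPM, and Eif4g3 at 128 ± 9.63 and 137 ± 10.1 CPM in wild type and null (SD, n = 3). The groups overlapped in all 3. The cap-binding gene Eif4e was at 195, 206 and 180 CPM in wild type and 202, 183 and 188 CPM in null, which is a log2 fold change of -0.02 ± 0.07. Eif4a3 encodes a helicase of the exon junction complex, and Eif4a3l1 is a near-identical copy of it, so counts of these genes may also be split. They had log2 fold changes of -0.13 ± 0.10 and -0.18 ± 0.17.

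The eIF4E binding proteins compete with eIF4G for eIF4E and are released when mTOR phosphorylates them. All 4 genes of the inhibitor group had log2 fold changes below 0, and none passed. Eif4ebp1 was at 37.8, 37.0 and 25.0 CPM in wild type and 26.7, 29.6 and 26.3 CPM in null, a log2 fold change of -0.29 ± 0.15 (SE, edgeR adjusted p = 0.316). Wild type replicate 3 was the lowest of the 6 libraries, while the other 2 wild type libraries were the highest. Eif4ebp2 had another layout, at 26.3, 21.3 and 29.7 CPM in wild type, with wild type replicate 3 the highest, and 25.3, 23.9 and 21.9 CPM in null. Eif4ebp3 was low, at 5.83 ± 1.01 and 5.64 ± 0.10 CPM (SD, n = 3), and 67.3% of its exon bases are shared with a read-through gene on the same strand. Eif4enif1, which carries eIF4E into the nucleus, was at 51.1 ± 1.47 and 49.3 ± 1.07 CPM.

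The factors of subunit joining and later steps were mixed, with 3 of 5 log2 fold changes below 0. Eif5, which triggers GTP hydrolysis by eIF2, was at 249, 265 and 266 CPM in wild type and 309, 272 and 274 CPM in null (0.13 ± 0.07, edgeR adjusted p = 0.350). The null libraries lay above the wild type libraries, though null replicates 2 and 3 did so narrowly. Eif5b, the GTPase that joins the large subunit, was at 69.8, 71.4 and 80.6 CPM and 83.2, 80.3 and 76.2 CPM (0.12 ± 0.08). Rev1, on the other strand, covers 16.8% of its exon bases. Eif5a, the hypusine-carrying factor that helps peptide bond formation, was at 675, 602 and 497 CPM in wild type and 548, 514 and 561 CPM in null. Eif6, which keeps free large subunits from joining, was at 68.5, 63.8 and 48.4 CPM and 52.2, 54.3 and 56.4 CPM. In Eif5a and Eif6 wild type replicate 3 was again the lowest of the 6 libraries.

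**Figure D2:**
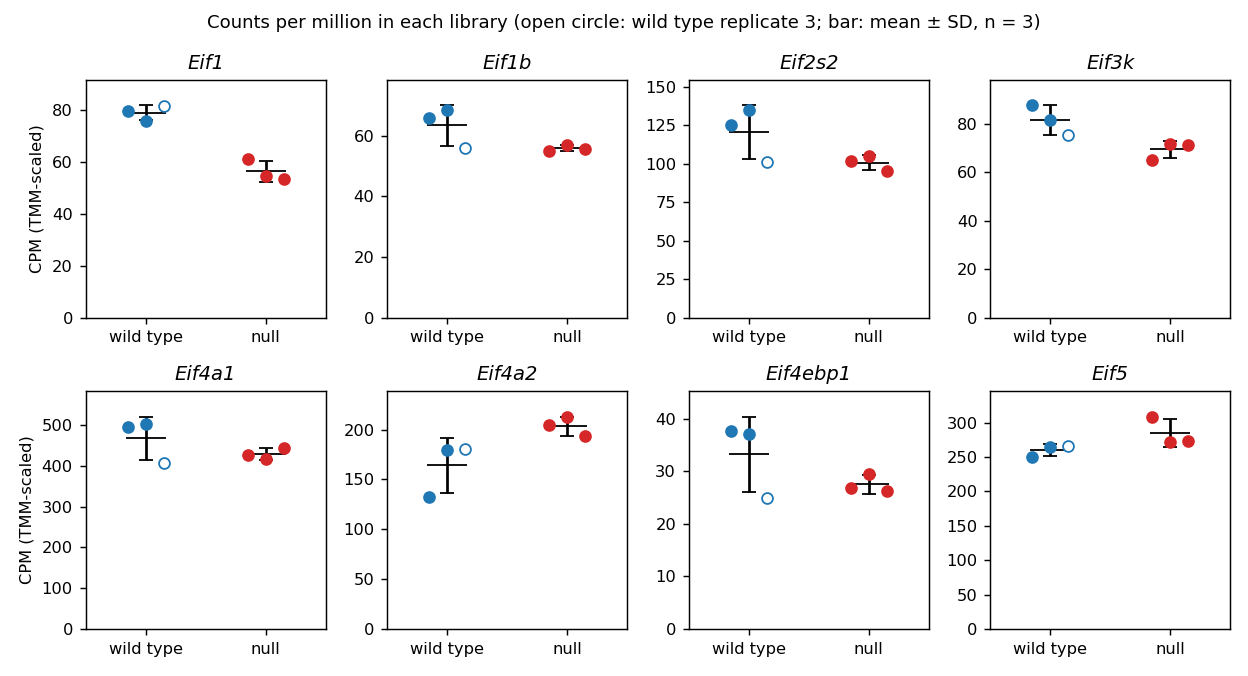
CPM (y axis, from 0) in each of the 6 libraries for 8 genes, with wild type in blue and null in red, the open circle for wild type replicate 3, and bars for mean ± SD (n = 3). The groups of Eif1, Eif3k, Eif4a2 and Eif5 do not overlap, whereas in Eif1b, Eif2s2, Eif4a1 and Eif4ebp1 wild type replicate 3 lies among or below the null libraries.

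On a per-length scale the genes spanned a wide range of levels. In CPM per kilobase of gene length (RPKM), averaged over the 6 libraries, Eif5a was highest at 281, followed by Eif4a1 at 238 and Eif1ax at 157. The lowest tested gene was Eif4a3l1 at 3.68. Within eIF3 the levels ran from 133 for Eif3i, a small WD-repeat subunit, to 9.97 for Eif3j1, with a median of 98.6 over the 14 genes. The eIF2B subunits, at a median of 20.4 RPKM, and the eIF2 kinases, at 9.01 RPKM, lay below the start codon group at 55.9 RPKM and the ternary complex group at 44.0 RPKM. The inhibitors of eIF4E were led by Eif4ebp1, at 31.0 RPKM.

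**Figure D3:**
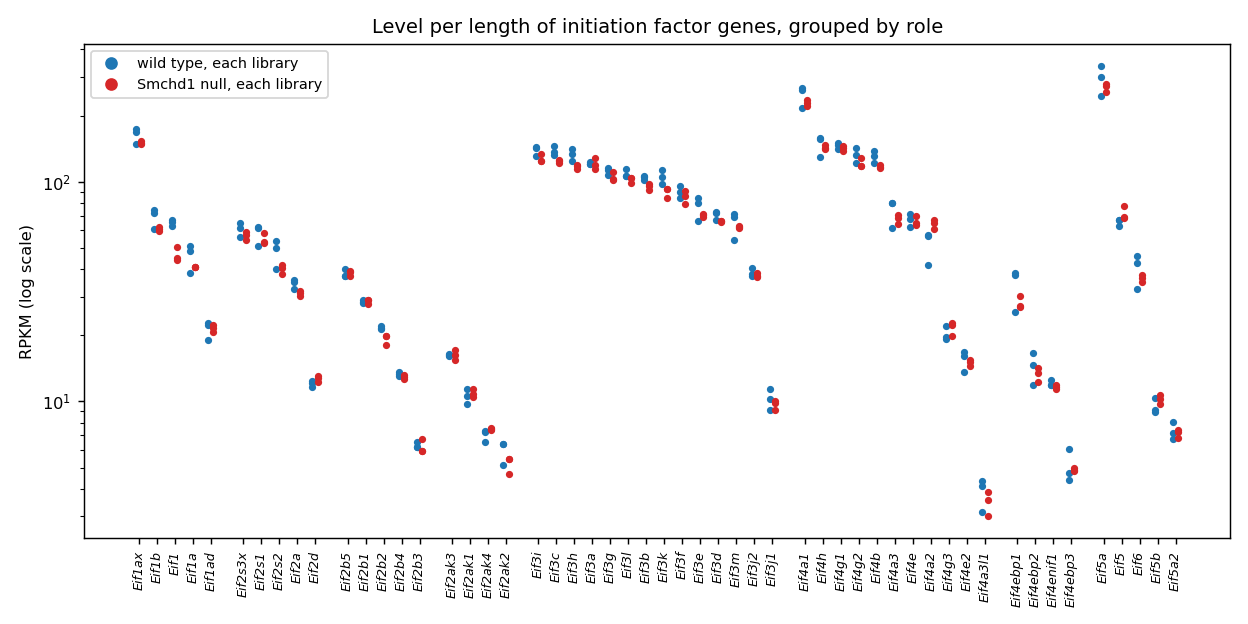
RPKM on a log scale (y axis) of each tested gene in each library, with genes on the x axis grouped by role and sorted by level, wild type in blue and null in red. Eif5a, at a mean of 281, and Eif4a1, at 238, are the highest, and Eif4a3l1, at 3.68, is the lowest.

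The balance between paralogs was compared within libraries, as the log2 ratio of the levels per length, with an exact two-sided permutation test over 3 against 3 libraries, whose smallest possible p is 0.1. Eif1 made up 47.8%, 45.6% and 52.5% of the summed level of Eif1 and Eif1b in wild type and 45.7%, 42.1% and 42.0% in null. The log2 ratio was -0.08 ± 0.20 in wild type and -0.39 ± 0.12 in null (SD, n = 3), a difference of -0.31 with an exact p of 0.2 (0.333 adjusted over 5 pairs), and the groups overlapped. Eif4a1 made up 86.3%, 82.5% and 79.1% of the Eif4a1 and Eif4a2 level in wild type and 77.9%, 76.8% and 79.5% in null. Wild type replicate 3 lay within the null range there, and the difference of -0.44 had an exact p of 0.2 (adjusted 0.333). The X-linked Eif2s3x and its closely similar Y-linked partner Eif2s3y, between which reads may be split, differed in balance by -0.25 (exact p = 0.2, adjusted 0.333). Eif1a against Eif1ax, at -0.04, and Eif5a against Eif5a2, at -0.09, each had an exact p of 0.7. None of the 5 balances was therefore shown to differ at a design of this size.

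How far the genes leaned lower depended on wild type replicate 3. Taken alone, wild type replicate 1 lay above the null mean for 42 of the 53 genes and replicate 2 for 39, whereas replicate 3 did so for 26. Replicate 3 was the lowest of the 6 libraries for 15 of 53 genes (28.3%), against 21.3% of all genes, and the highest for 4 (7.55%), against 22.6%. Those 4 were Eif1, Eif2b2, Eif4ebp2 and Eif5a2. Without it, edgeR called 25 of the 53 genes lower (47.2%, against 19.4% of all genes in that fit) and 2 higher (3.77%, against 19.7%), and the median log2 fold change was -0.14. The lower ones comprised 4 of 5 start codon genes, 4 of 5 ternary complex genes, 8 of 14 eIF3 genes, 5 of 11 cap complex genes, 2 of 5 late factors, 1 kinase, Eif2ak2, and 1 inhibitor, Eif4ebp1, which reached -0.44 (edgeR adjusted p = 0.000136). The 2 higher ones were Eif5b and Eif4g3. In the library that this fit leaves out, 10 of the 25 lower genes lay below all null libraries, 7 within their range and 8 above them.

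Weighting libraries by quality in limma-voom gave wild type replicate 3 a weight of 0.215, against 1.10 to 1.70 for the others, and called 20 genes lower (37.7%, against 17.4% of all genes) and 2 higher (3.77%, against 19.0%), Eif4a2 and Eif5b. With the range of sample-name numbers as a term, in contrast, 26 of 53 genes had a log2 fold change below 0 (49.9% of all genes) and the median was 0.01. By role, 2 of 5 start codon genes were then below 0 (median 0.02), 2 of 5 ternary complex genes (0.02), 3 of 5 eIF2B genes (-0.05), 2 of 4 kinases (0.00), 10 of 14 eIF3 genes (-0.04), 3 of 11 cap complex genes (0.09), 2 of 4 inhibitors (0.05) and 2 of 5 late factors (0.10). The medians of the start codon, ternary complex, cap complex, inhibitor and late factor groups thus changed sign. That fit compares the null libraries in effect with wild type replicate 3, the only wild type library numbered 11 to 14. Eif1 was the only gene it called, as lower (0.767% of all genes), while Eif3k was at -0.12 and Eif4ebp1 at 0.14. Genotype, apart from this library, and the range of sample-name numbers cannot be told apart.

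**Figure D4:**
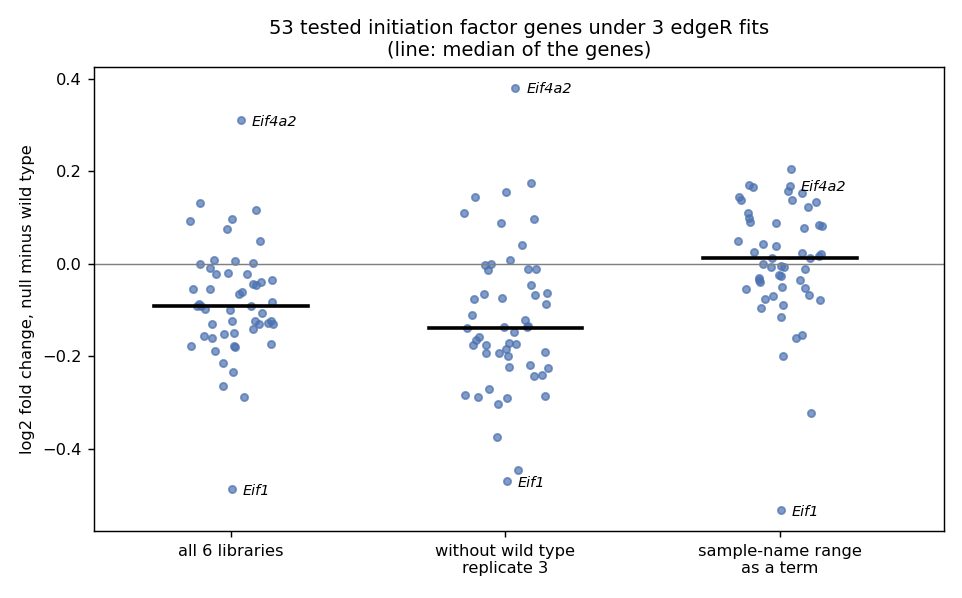
Log2 fold change (y axis, null minus wild type) of the 53 tested genes, 1 point each, in 3 edgeR fits, with a line at the median. The median moves from -0.09 with all 6 libraries to -0.14 without wild type replicate 3 and 0.01 with the sample-name range as a term, and Eif1 stays lowest in all 3.

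Other genes of the pathway were taken from 3 lists. Of 32 tested partners and regulators of initiation, 0 passed in either direction, 22 had a log2 fold change below 0 and the median was -0.05. At an unadjusted p under 0.05 there were 2 lower genes (9.05% of all genes) and 1 higher gene (9.54%). Without wild type replicate 3, edgeR called 8 of the 32 lower (19.4% of all genes) and 4 higher (19.7%). With the sample-name range as a term, 12 of the 32 were below 0 (49.9% of all genes) and the median was 0.03. In that fit, which in effect sets wild type replicate 3 alone against the null libraries, Pabpc1 was at -0.52. Its levels were 171, 148 and 225 CPM in wild type replicates 1 to 3 and 163, 160 and 147 CPM in null. Its log2 fold change was -0.21 with all 6 libraries (edgeR adjusted p = 0.424) and -0.03 without wild type replicate 3 (adjusted p = 0.711). Paip2b, an inhibitor of the poly(A)-binding protein, was at 34.5, 32.7 and 37.2 CPM in wild type and 44.2, 38.1 and 42.6 CPM in null (0.26 ± 0.08, edgeR adjusted p = 0.193), and its groups did not overlap. Ddx3x, a helicase that assists scanning through structured leaders and has a close Y-linked copy that may share its reads, was at 750, 762 and 591 CPM and 612, 543 and 496 CPM (-0.35 ± 0.12, edgeR adjusted p = 0.205).

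Of 16 elongation and termination genes, 0 passed and 12 had a log2 fold change below 0, with a median of -0.07. At an unadjusted p under 0.05 there were 0 lower (9.05% of all genes) and 3 higher (9.54%). Without wild type replicate 3, edgeR called 6 of the 16 lower (19.4% of all genes) and 2 higher (19.7%). With the sample-name range as a term, 4 of the 16 were below 0 (49.9% of all genes) and the median was 0.04. Eef1a2, the elongation factor form of mature neurons and muscle, was at 0.078, 0.128 and 0.992 CPM in wild type and 2.21, 2.39 and 2.45 CPM in null. It was low in every library, and wild type replicate 3 lay between the other wild type libraries and the null libraries. Its log2 fold change was 3.09 ± 0.61 (SE, edgeR adjusted p = 0.0929, DESeq2 adjusted p = 0.00699, limma-voom adjusted p = 0.0367). It was 4.46 without wild type replicate 3 (edgeR adjusted p = 1.96e-07). With the sample-name range as a term, in effect against wild type replicate 3 alone, it was 1.24. Gfm2, a mitochondrial ribosome recycling factor, was at 39.4 ± 1.89 and 45.0 ± 1.37 CPM (0.19 ± 0.07, edgeR adjusted p = 0.222).

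Phosphorylated eIF2 favours translation of the transcription factor ATF4, whose targets include genes of amino acid supply. Of the 25 listed genes of this integrated stress response, 24 were tested, 22 had a log2 fold change below 0, the median was -0.19, and 0 passed in either direction. At an unadjusted p under 0.05 there were 8 lower (9.05% of all genes) and 0 higher (9.54%). Phgdh, the first enzyme of serine synthesis, had a lowest wild type value of 121 CPM, above all null libraries, and means of 137 ± 14.4 and 109 ± 3.11 CPM (SD, n = 3) (-0.33 ± 0.08, edgeR adjusted p = 0.137, DESeq2 adjusted p = 0.0264). Chac1, an enzyme of glutathione breakdown, was at 5.00, 5.54 and 3.27 CPM and 2.30, 3.47 and 2.90 CPM (-0.71 ± 0.23, edgeR adjusted p = 0.203). Atf4 itself was at 85.5, 92.3 and 57.1 CPM and 61.3, 64.9 and 58.0 CPM, so that wild type replicate 3 was again the lowest of the 6. Without that library edgeR called 13 of the 24 lower (19.4% of all genes) and 1 higher (19.7%). The lean of this list remained there, with 21 of the 24 below 0 and a median of -0.21. With the sample-name range as a term, which in effect sets wild type replicate 3 alone against null, the lean was smaller. In that fit 15 of the 24 were below 0 (49.9% of all genes) and the median was -0.04. Slc7a11 was at -0.37 in it and at 0.11 without wild type replicate 3 (edgeR adjusted p = 0.183). Its levels were 60.7, 54.4 and 80.5 CPM in wild type replicates 1 to 3 and 63.7, 60.8 and 62.1 CPM in null.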

How the data were processed

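RNA was measured in 6 libraries prepared with an unstranded kit and single reads, per the labels' protocols. The authors deposited raw counts with Entrez IDs and gene lengths. The submitters' processing notes name the build mm10, featureCounts, CASAVA 1.8.2, limma 3.22.0 and edgeR 3.8.2. The aligner is not given in the sources used here. Symbols came from a RefSeq table (GRCm38.p6), which matched 25275 of 27179 IDs (93.0%). Exon overlaps came from a GENCODE annotation of the same assembly.

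The test was that of edgeR 4.0.16 (R 4.3.3): filterByExpr, TMM scaling, a robust quasi-likelihood F-test with genotype as the only term, two-sided, with Benjamini-Hochberg adjustment over 14207 genes at 0.05. CPM is the count divided by the scaled library size in M counts, and RPKM is CPM per kilobase of deposited length. Alternatives included DESeq2 1.42.0 and limma-voom 3.58.1. Pairs of libraries within a group differed by a mean chi-square per gene of at least 7.85, beyond sampling noise. The pairs that hold wild type replicate 3 reached 1759 and 1685, while the other pairs went up to 17.4. These means kept in Entrez gene 100861531, which made up 44.6% of wild type replicate 3 and 2.11% to 5.90% of the others. They therefore do not give the difference of a typical gene in that library.

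The members, gene lists and tests were chosen with earlier results of these data known. Named genes were each called member, in each role group the 3 members with the smallest p and those highest and lowest per length, all paralog pairs, and the 2 genes with the smallest p of each pathway list. Atf4, Slc7a11, Pabpc1 and the remaining members named were added after their values were seen.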

Additional observations from a re-analysis of the deposited data

How the results depend on the processing

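Eif1 kept its direction under all 17 alternatives. Its call was lost with the replicate number as a block (log2 fold change -0.489, edgeR adjusted p = 0.0736) and when any library but wild type replicate 3 was left out, with log2 fold changes from -0.551 to -0.452 over all leave-one-out fits. Initiation factor genes called lower numbered 1 (0.0704% of all genes) and those called higher 0 (0.507%). With quality weights in limma-voom they numbered 20, against 17.4% of all genes, and 2, against 19.0%. The replicate block gave 0 in both directions. With a library left out they ran from 0 to 25 lower and 0 to 2 higher. The most came without wild type replicate 3, against 19.4% and 19.7% of all genes. The pathway lists held 32, 16 and 24 tested genes, of which 0 were called in either direction. DESeq2 called 1 lower and 1 higher, where 221 and 177 of 14190 genes were called. Limma-voom called 1 higher, where 104 of 14207 genes were called. Quality weights gave 26 lower, against 17.4% of all genes, and 8 higher, against 19.0%. The sample-name term gave 2 lower, against 0.767% of all genes. With a library left out these ran from 0 to 27 lower and 0 to 7 higher. The most came without wild type replicate 3, where 19.4% of all genes were called lower and 19.7% higher. The fit of the libraries named 11 to 14 holds 1 wild type library, so only its effect size is given, -0.534 for Eif1.

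Over all genes, 10 lower and 72 higher calls became 221 and 177 in DESeq2, 2468 and 2700 with quality weights, 59 and 163 without a filter, and 250 and 126 among the libraries named 11 to 14. Lower and higher calls were 23 and 104 in limma-voom, 6 and 48 with the replicate block, and 109 and 77 with the sample-name term. With a library left out they ran from 1 to 2819 lower and from 29 to 2857 higher. The replicate numbers did not pair the libraries, since same-numbered ones had correlations of 0.0012, 0.0182 and -0.0555 in their deviations from the group means. The paralog balance of Eif1a and Eif1ax ran from -0.0947 to 0.018, reversed without wild type replicate 2, and that of Eif5a and Eif5a2 from -0.283 to 0.020, reversed without wild type replicate 1, when a library was left out, where the smallest possible exact p is 0.2. The causes of these changes were not tested. Depth limits Eif4e3, which had too few counts to test.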
